A study of Homo sapiens with 6 samples.

Results

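Fatty acid oxidation and the PPAR receptors that control it were examined in SiHa PR cells, the parental cells of a human cervical carcinoma line, with and without overexpression of P4HA3. The 9 genes were taken by name from the 60664 genes counted, and comprise the receptors PPARA, PPARD and PPARG, the carnitine palmitoyltransferases CPT1A and CPT2, the β-oxidation enzymes ACADVL and HADHA, and the PPAR targets PDK4 and ANGPTL4. RNA-seq had been performed on 3 control libraries labelled SiHa PR and 3 libraries labelled SiHa PR P4HA3. All 6 libraries come from the same cell line. The P4HA3 coding sequence was delivered by a lentiviral vector, per the study's methods, and whether the cells are a clone or a pool is not given in the sources used here. The sample titles do not name an empty vector for the control, and nothing in the labels says that the libraries of a group came from separate cultures, so that p-values measure the spread between these libraries, which may be technical.

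The PPARs are nuclear receptors that bind fatty acids and their derivatives, pair with a retinoid X receptor (RXR) and switch on genes of lipid uptake, storage and burning. PPARα is best known for fasting metabolism in liver, PPARδ for oxidative metabolism in muscle and many other tissues, and PPARγ for adipocyte differentiation and lipid storage. Long-chain fatty acids enter mitochondria through the carnitine shuttle, in which CPT1 on the outer membrane is the controlled step and CPT2 on the inner membrane restores the acyl-CoA, and they are then shortened by the enzymes of β-oxidation.

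PPAR-RXR pairs bind direct repeats of the hexamer AGGTCA with a spacer of 1 base, so the letters around the genes were searched before their expression is described. AGGTCANAGGTCA was searched on both strands of GRCh38, in each gene and the 5 kb before it, with at most 1 of the 12 fixed bases different. No exact copy was found. CPT1A held 3 inexact copies and PDK4 held 1, and PPARA, PPARG, CPT2, ACADVL, HADHA and ANGPTL4 held none. The copies of CPT1A and PDK4 are shown 5′ to 3′ on the strand of the repeat, with both hexamers in capitals and 8 flanking bases on each side.
CPT1A, chr11:68831325-68831337, plus strand, intron 1: aggaaagcAGGTGAaAGGTCAgcttgatg
CPT1A, chr11:68835830-68835842, minus strand, intron 1: cttgctcaAGGTCAcAGGTCTgagtaatt
CPT1A, chr11:68847760-68847772, plus strand, before the gene's start: gtcagaatAGTTCAaAGGTCActattact
PDK4, chr7:95601229-95601241, plus strand, before the gene's start: cttggaggAAGTCAtAGGTCAtctgactt

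A window of the length searched held at least 1 such copy in 49.1% of the windows of chromosome 11 for CPT1A and in 12.1% of those of chromosome 7 for PDK4. For the 6 genes named without a copy, the share ran from 10.8% (ACADVL) to 63.1% (PPARG). A match is a description of letters, and no binding was measured. Repeats with more than 1 fixed base different were not searched for, so a gene named without a copy may still hold such a repeat.

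The RefSeq promoter windows (GRCh38.p14, 250 bases before and 50 after each start) matched all 9 genes by symbol. None of them held the exact repeat, which 0.0228% of 35116 promoters did. PPARG has the most windows of the 9 genes, and so the most places for a match. The single hexamer, present in 13.8% of promoters, was found in PPARG alone among the 9, before the first and before later ones of its listed starts. It occurs 2 times before the first of its listed starts, at chr3:12287143-12287197 on the plus strand, shown here because PPARG is the receptor whose level differed most, with the hexamers in capitals.
PPARG, upstream stretch: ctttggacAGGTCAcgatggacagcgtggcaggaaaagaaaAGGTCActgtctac

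P4HA3 itself had 62 to 93 counts in the control libraries and 44775 to 49097 in the overexpressing ones, a log2 fold change of 9.15 in the direction of the labels. Library totals ran from 21773488 to 24939948 counts. Counts were scaled to CPM, the reads of a gene per 1000000 reads of the TMM-normalized library, groups were compared by edgeR's quasi-likelihood test over 15130 genes, and a gene was called at an adjusted p (Benjamini-Hochberg over all genes tested) under 0.05. Of these genes 1416 were called higher (9.36%) and 1731 lower (11.4%), or 20.8% in either direction. Without SiHa PR replicate 2 the number called was 534, and without SiHa PR P4HA3 replicate 1 it was 5530. Across genes, the log2 fold change had a rank correlation of -0.58 with the GC content of the transcript.

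The cell identity was checked with marker genes, since a protocol text in the labels describes smooth muscle. The epithelial keratins KRT8 and KRT18 were high (1817 and 942 CPM in control cells), whereas MYH11, DES, CNN1, LMOD1 and MYOCD, which define smooth muscle, were near 0 in every library. Other listed epithelial and squamous markers were low. KRT5 had 3 or 4 counts a library and TP63 3 to 13, and neither was tested. KRT14 had 1.35 CPM in control cells and 1.17 CPM with overexpression and was not called. The adipocyte genes ADIPOQ and LEP, the hepatocyte gene ALB and the T cell gene CD3E were at 0 counts, while the adipocyte gene PLIN1 had 15 to 30 counts a library and the hepatocyte gene APOA1 1 to 8. ACTA2, the one smooth muscle marker with enough counts to test, had 7.78 and 7.98 CPM and was not called. With overexpression, 3 of the 5 epithelial markers tested fell (KRT18, CDKN2A and CDH1, the last from 16.5 to 9.66 CPM), and the summed level of the 7 listed went from between 2943 and 3328 CPM to between 2631 and 2996 CPM. With an offset for the dependence of each library on GC content and length, CDH1 and KRT18 were still called, KRT18 at -0.20, and CDKN2A was at -0.07 and not called. Of the 9 markers of adipocytes, hepatocytes, leukocytes and endothelium, 2 were tested. PECAM1 fell, from 2.89 to 1.40 CPM, and PLIN1 was not called, at 0.880 and 0.964 CPM (log2 fold change 0.13). The part of these markers in the results below was not tested, and in bulk RNA fewer cells of a kind and less RNA per cell cannot be told apart.

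Of the 9 genes, 8 had enough counts to be tested. CPT1A rose, PPARG and ANGPTL4 fell, and PPARA, PPARD, CPT2, ACADVL and HADHA were not called. The 1 higher gene and the 2 lower genes among 8 stand beside the 9.36% and 11.4% of all genes called in those directions, and nothing is read from so small a number. The median log2 fold change of the 8 genes was -0.12, against 0.01 over all genes tested.

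**Figure D1:**
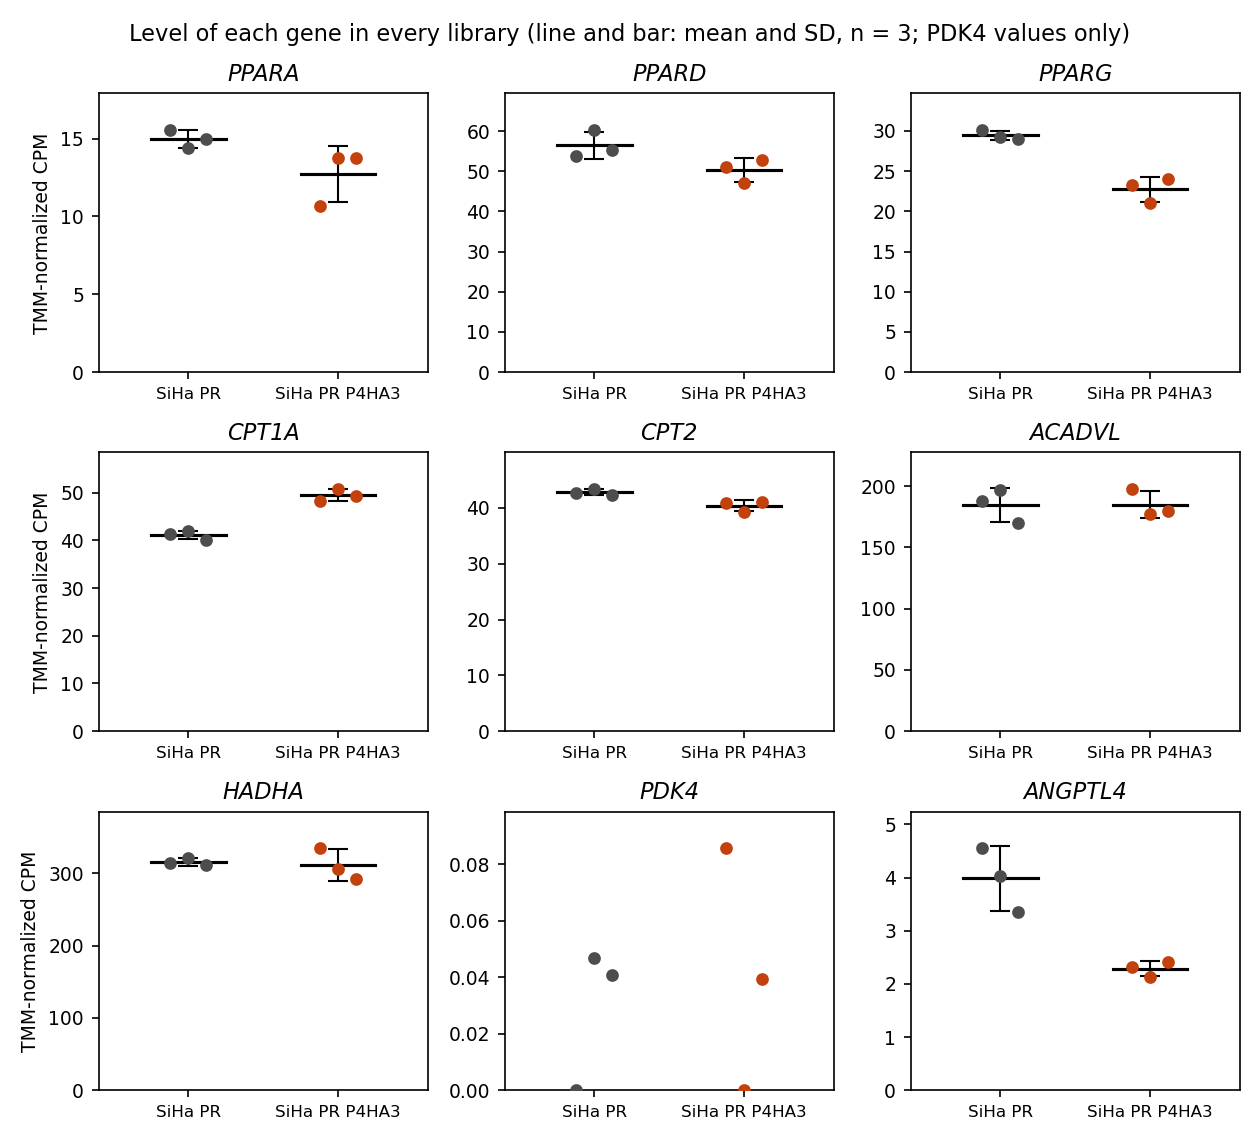
Level of each of the 9 genes in every library, in TMM-normalized CPM on axes that start at 0, for SiHa PR (grey) and SiHa PR P4HA3 (orange). Lines and bars give the mean and SD of 3 libraries. The groups do not overlap for PPARA, PPARD, PPARG, CPT1A, CPT2 and ANGPTL4, overlap for ACADVL and HADHA, and PDK4 shows single reads, from 0 to 2 counts a library. Among all genes tested, 19.7% had every overexpressing library above every control library and 20.4% had every one below.

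Among the receptors, PPARG (ENSG00000132170, GRCh38 chr3:12287368-12434356, plus strand) had 30.1, 29.2 and 29.0 CPM in SiHa PR replicates 1, 2 and 3 and 23.2, 21.0 and 24.0 CPM with P4HA3 overexpression. Every overexpressing library lay below every control library. The mean went from 29.4 ± 0.606 to 22.8 ± 1.54 CPM (SD, n = 3 each), a decrease of PPARG by a log2 fold change of -0.37 (SE 0.0765, 95% confidence interval -0.54 to -0.20, adjusted p = 0.0112 by edgeR). PPARG thus fell by 22.7%, and ranked 995 by size among the genes called lower. The call was lost without SiHa PR replicate 1 (adjusted p = 0.0623 by edgeR) and without SiHa PR replicate 2 (0.0602), although the log2 fold change stayed between -0.42 and -0.32 over all alternatives.

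PPARD (ENSG00000112033, chr6:35342558-35428191, plus strand) had 53.8, 60.3 and 55.2 CPM in control cells and 51.0, 47.1 and 52.8 CPM with overexpression. The groups did not overlap, but the highest overexpressing library was within 1 CPM of the lowest control library. The log2 fold change was -0.17 (SE 0.0707, interval -0.32 to -0.01), with an adjusted p of 0.113 by edgeR. After an offset had removed each library's own dependence on GC content and on length, it was 0.01.

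PPARA (ENSG00000186951, chr22:46150521-46243755, plus strand) had 15.6, 14.4 and 15.0 CPM in control cells and 10.6, 13.7 and 13.8 CPM with overexpression. The overexpressing libraries were all lower, and replicate 1 was the lowest of them. The log2 fold change was -0.24 (SE 0.110, interval -0.48 to 0.01) and was not called (adjusted p = 0.141 by edgeR). It was -0.12 without SiHa PR P4HA3 replicate 1, and with the GC and length trends removed it was -0.32 and passed the threshold (adjusted p = 0.0231 by edgeR).

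**Figure D2:**
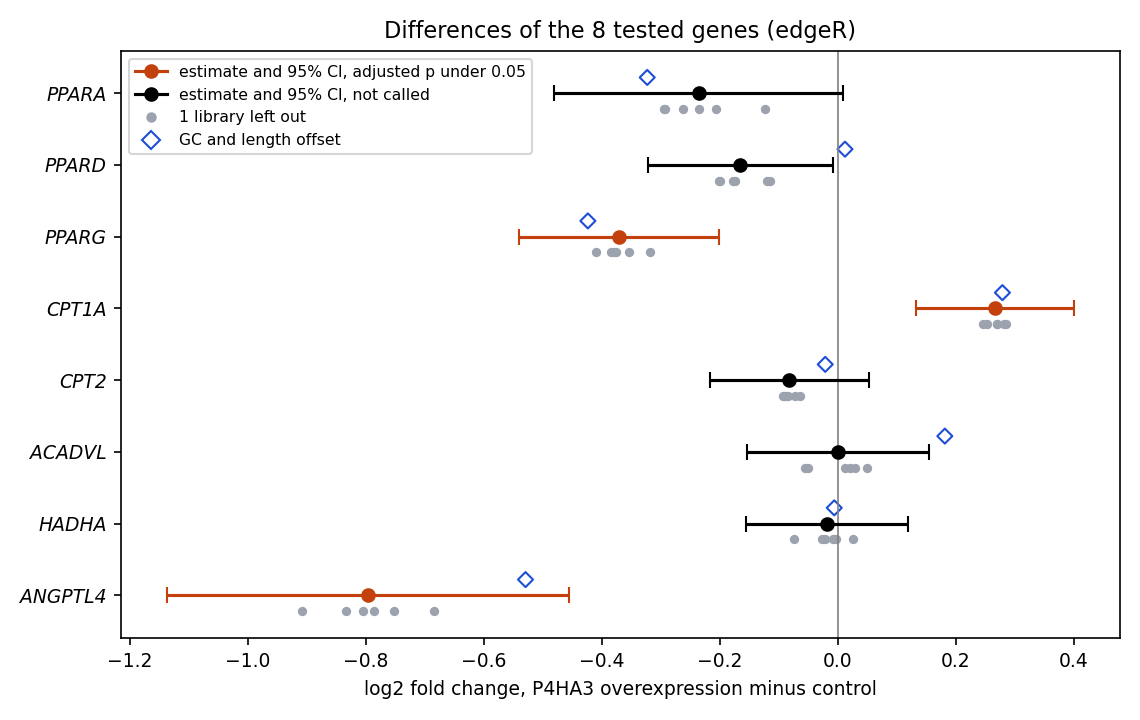
Log2 fold change of the 8 tested genes, P4HA3 overexpression minus control, with the 95% confidence interval (orange for genes called, black for the others). Grey dots leave out 1 library each, and blue diamonds have the GC and length trends removed. The called genes PPARG, CPT1A and ANGPTL4 keep their side of 0 in every fit shown, as do PPARA and CPT2, which were not called. ACADVL moves from 0.00 to 0.18 with the trends removed.

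Per kilobase of all exons, PPARD was the highest of the PPAR genes in these cells. Dividing CPM by the kilobases of all exons of a gene gave 12.7 for PPARD, 2.46 for PPARG and 1.13 for PPARA in control cells, and 11.3, 1.90 and 0.962 with overexpression. PPARD therefore took 77.9% ± 1.39 of the summed receptor level in control cells and 79.8% ± 0.808 with overexpression (SD, n = 3 each). PPARG took 15.1% ± 0.846 and 13.4% ± 0.261, and PPARA 6.99% ± 0.550 and 6.82% ± 1.06. Divided by the longest transcript instead, the share of PPARD was 65.2% and 67.9%, since PPARG has many alternative exons, and PPARD was again the highest. The canonical transcript is shorter for PPARG (1774 bases) than for PPARD (3734 bases). No share was computed by that length, and which of these receptors stands highest depends on the length used.

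The partners and cofactors of the receptors were measured alongside. RXRB, one of the RXR partners, fell from 37.7 to 32.2 CPM (log2 fold change -0.23, adjusted p = 0.0342 by edgeR), and with the GC and length trends removed it was -0.05 and not called. RXRA, the most abundant of the RXR genes here, had 197 and 184 CPM and was not called (-0.10, adjusted p = 0.199 by edgeR). RXRG had 3 to 15 counts a library and was not tested.

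Of 11 PPAR coactivators, 3 rose and 1 fell. MED1, a Mediator subunit that contacts nuclear receptors, rose from 82.7 to 106 CPM (log2 fold change 0.36, adjusted p = 0.00789 by edgeR). The histone acetyltransferase CREBBP rose by 0.34 and NCOA1 by 0.33 on the log2 scale, whereas HELZ2 fell by 0.25. Once the GC and length trends were removed, MED1 was at 0.23 and NCOA1 at 0.20, both still called, and HELZ2 was at -0.04 and not called. EP300, another acetyltransferase, was then called higher (0.23, adjusted p = 0.0237 by edgeR), which made 4 coactivators higher and 0 lower. The PGC-1 coactivators, which drive mitochondrial biogenesis, were not called, with log2 fold changes of 0.00 for PPARGC1A at 2.28 and 2.30 CPM and -0.19 for PPARGC1B at 5.72 and 5.01 CPM. None of the 7 corepressors was called by edgeR, and their median log2 fold change was 0.06. After removal of these trends 1 corepressor was called higher.

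In the carnitine shuttle, CPT1A (ENSG00000110090, chr11:68754620-68844410, minus strand), the liver-type CPT1, had 41.2, 41.9 and 40.2 CPM in control cells and 48.2, 50.8 and 49.3 CPM with overexpression. It was the only one of the 9 genes whose overexpressing libraries all lay above the control libraries, as they did for 19.7% of all genes tested. The mean went from 41.1 ± 0.879 to 49.4 ± 1.29 CPM (SD, n = 3 each), a rise of 20.3% (log2 fold change 0.27, SE 0.0605, interval 0.13 to 0.40, adjusted p = 0.0155 by edgeR). The call was lost without SiHa PR replicate 1 (adjusted p = 0.0768), SiHa PR replicate 2 (0.0624) or SiHa PR P4HA3 replicate 3 (0.0690, all by edgeR), while the log2 fold change ran from 0.25 to 0.29 over all alternatives.

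CPT1A carried nearly all of the CPT1 level. Its share per kilobase was 99.2% ± 0.180 in control cells and 99.5% ± 0.190 with overexpression (SD, n = 3 each), and the muscle-type CPT1B had 0 or 1 count and CPT1C, the brain form, 3 to 6 counts a library.

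CPT2 (ENSG00000157184, chr1:53196792-53214197, plus strand) had 42.7, 43.4 and 42.3 CPM in control cells and 40.9, 39.3 and 41.0 CPM with overexpression. The groups were close and did not overlap, with a log2 fold change of -0.08 (SE 0.0608, interval -0.22 to 0.05, adjusted p = 0.334 by edgeR). A noncoding gene on the opposite strand, ENSG00000236723, shares 1151 bases of exon with CPT2 and had 4 to 10 counts a library. CZIB, also on the opposite strand, shares 99 bases of exon with CPT2 and had 616 to 806 counts. Whether the counting used strand is not given in the sources used here. The carnitine-acylcarnitine translocase SLC25A20, which moves acylcarnitines across the inner membrane between CPT1 and CPT2, had 24.8 and 25.2 CPM (log2 fold change 0.02, adjusted p = 0.870 by edgeR). CPT1A was the only one of the 6 shuttle genes tested that was called.

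Before the shuttle, fatty acids are taken up and joined to coenzyme A. Of 15 tested genes of fatty acid uptake and activation, 6 fell and 2 rose, with a median log2 fold change of -0.19. The counts of this and the other lists stand beside 11.4% called lower and 9.36% called higher among all genes tested. With the GC and length trends removed, this list had 6 genes lower and 2 higher, with a median of -0.24, but the lower genes were not all the same ones. Counts of any list with the trends removed stand beside 1613 genes higher and 1174 lower among the 15130 tested. The fatty acid transport protein SLC27A1 fell from 11.8 to 7.79 CPM (log2 fold change -0.59, adjusted p = 0.00427 by edgeR), SLC27A3 from 6.81 to 4.84 CPM, and the acetyl-CoA synthetase ACSS2 from 92.2 to 65.9 CPM (-0.48, adjusted p = 0.00254 by edgeR). ACBD5 and ACBD3, which hold acyl-CoA-binding domains, rose by 0.37 and 0.34 on the log2 scale. With the trends removed SLC27A1 was at -0.36 and still called, and SLC27A3 was at -0.24 and not called.

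CPT1 is inhibited by malonyl-CoA, and of 9 tested genes of that control 1 rose and 1 fell. ACACA, the carboxylase that makes malonyl-CoA in the cytosol, fell from 149.9 to 127 CPM (log2 fold change -0.24, adjusted p = 0.0181 by edgeR). PRKAG2, a regulatory subunit of AMPK, the kinase that inhibits this carboxylase, rose from 13.4 to 16.5 CPM (0.30, adjusted p = 0.0300 by edgeR). ACACB, the mitochondrial form, and MLYCD, which breaks malonyl-CoA down, were not called, at -0.07 and -0.18. Under the GC and length offset the list had 1 gene higher and 2 lower, because PRKAA2, a catalytic subunit of AMPK, went from 0.04 to -0.29 (adjusted p = 0.0263 by edgeR).

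The enzymes of β-oxidation were the most abundant of the 9 genes. HADHA (ENSG00000084754, chr2:26190635-26244672, minus strand), the α-subunit of the trifunctional protein, had 314, 322 and 311 CPM in control cells and 335, 306 and 293 CPM with overexpression. The groups overlapped, with SiHa PR P4HA3 replicate 1 the highest and replicate 3 the lowest library. The log2 fold change was -0.02 (SE 0.0616, interval -0.16 to 0.12, adjusted p = 0.845 by edgeR).

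HADHB, which encodes the β-subunit from a start 1502 bases away on the opposite strand, had 185 and 190.3 CPM (log2 fold change 0.04, adjusted p = 0.625 by edgeR). It was also highest in SiHa PR P4HA3 replicate 1, at 201 CPM.

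ACADVL (ENSG00000072778, chr17:7217125-7225266, plus strand), the very-long-chain acyl-CoA dehydrogenase, had 188, 197 and 170 CPM in control cells and 198, 177 and 180 CPM with overexpression. The means of 184.9 ± 13.9 and 184.8 ± 11.2 CPM (SD, n = 3 each) were nearly equal, and the interval of the log2 fold change ran from -0.15 to 0.15. With the GC and length trends removed, ACADVL, whose transcript has a GC content of 57.8%, was higher by 0.18 (adjusted p = 0.0130 by edgeR). DLG4, on the opposite strand, shares 49 bases of exon with ACADVL and had 43 to 58 counts a library.

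Of 25 tested genes of mitochondrial β-oxidation, 3 fell, none rose by edgeR, and the median log2 fold change was -0.02. With the GC and length trends removed, 1 rose and 3 fell, and the genes that fell were not all the same ones. The short-chain dehydrogenase ACADS fell from 32.8 to 22.4 CPM (log2 fold change -0.55, adjusted p = 0.00500 by edgeR) and remained called with the trends removed, at -0.28. ECI1, an enoyl-CoA isomerase, fell from 190.3 to 152 CPM (-0.32, adjusted p = 0.0257 by edgeR) and was at -0.08 and not called with the trends removed. NUDT7, which fell by 0.45 on the log2 scale, is on this list but is known as a peroxisomal coenzyme A diphosphatase. ACADL, the long-chain dehydrogenase, had 0 counts in every library.

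Peroxisomal β-oxidation, which shortens very long chains, had 3 of 21 tested genes lower and none higher by edgeR, with a median log2 fold change of -0.10. ECH1, a dienoyl-CoA isomerase, fell from 112 to 85.4 CPM (-0.39, adjusted p = 0.00867 by edgeR), PECR fell by 0.32 and the import receptor PEX5 by 0.21 on the log2 scale. With the trends removed ECH1 was at -0.19 and still called, and PEX5 was at -0.11 and not called.

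Among the targets, ANGPTL4 (ENSG00000167772, chr19:8363289-8374370, plus strand), a secreted inhibitor of lipoprotein lipase, had the largest log2 fold change of the 8 tested genes. It had 4.56, 4.04 and 3.35 CPM in control cells (111, 86 and 82 counts) and 2.32, 2.13 and 2.40 CPM with overexpression (54, 48 and 61 counts). The control libraries were spread and the overexpressing ones tight, and they did not overlap. The mean went from 3.98 ± 0.606 to 2.29 ± 0.138 CPM (SD, n = 3 each), so ANGPTL4 fell by 42.4% (log2 fold change -0.80, SE 0.154, interval -1.14 to -0.46, adjusted p = 0.00864 by edgeR).

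ANGPTL4 lost its call without SiHa PR replicate 2 (adjusted p = 0.0554 by edgeR), with a log2 fold change of -0.79. Its transcript has the highest GC content of the 9 genes, 63.3%, and with the GC and length trends removed the log2 fold change was -0.53 (adjusted p = 0.0233 by edgeR). Lipoprotein lipase itself (LPL) had 0 to 2 counts a library, and GPIHBP1, which anchors it to capillary walls, had none. SEL1L, which takes part in the maturation of the lipase, rose from 75.9 to 104 CPM (0.45, adjusted p = 0.00675 by edgeR), and was at 0.21 and still called with the trends removed.

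PDK4 (ENSG00000004799, chr7:95583499-95596516, minus strand), the starvation-induced kinase that inactivates pyruvate dehydrogenase, had 0, 1 and 1 counts in control cells and 2, 0 and 1 with overexpression. All 6 values are under the limit of 3 counts that a count of 0 allows, so no fold change is given. Its kinase family was carried by PDK2, with 73.6% of the summed level per kilobase in control cells and 73.7% with overexpression, followed by PDK3 and PDK1. PDK1 had 20.8 and 17.6 CPM without overlap between the groups, and was just short of a call (log2 fold change -0.24, adjusted p = 0.0535 by edgeR). Under the GC and length offset PDK1 was at -0.51 and called lower (adjusted p = 0.00638 by edgeR). PDK2 and PDK3 were not called, at -0.12 and -0.06.

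**Figure D3:**
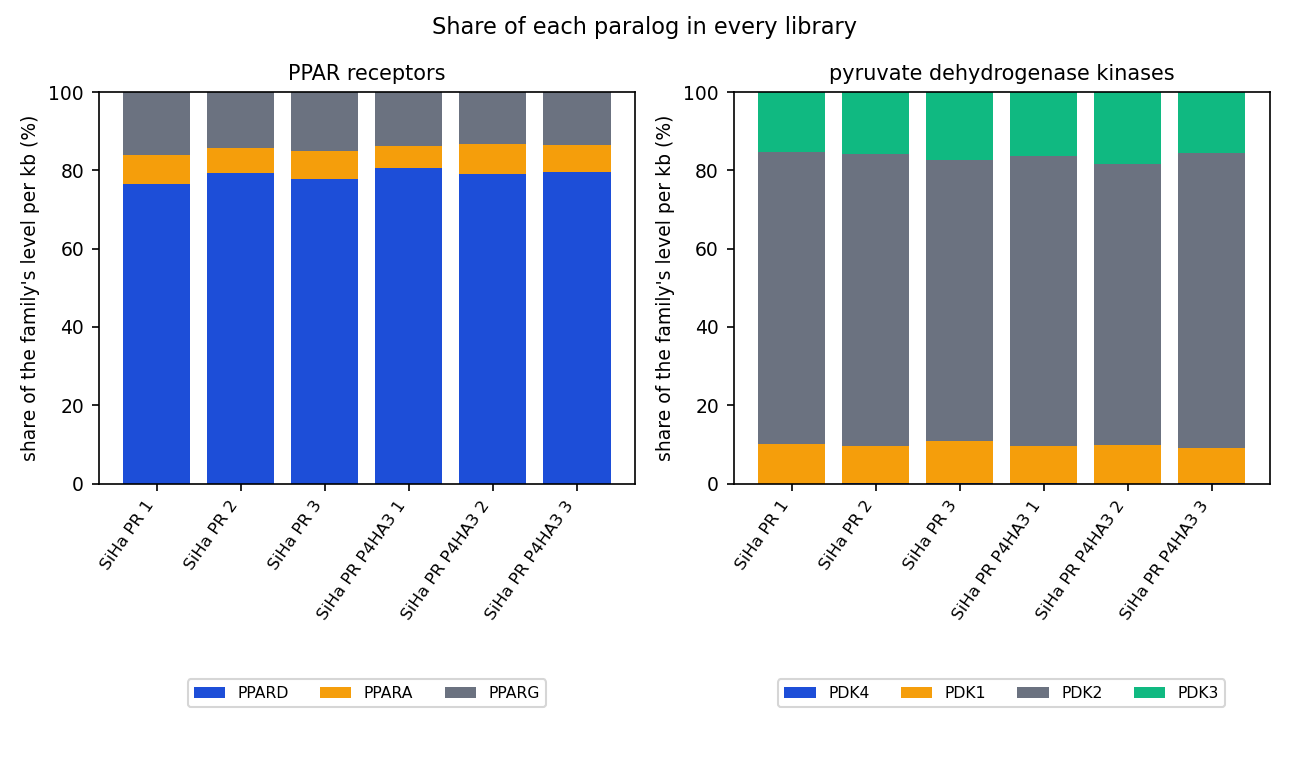
Share of each paralog in its family's summed level per kilobase of all exons, in percent, for each of the 6 libraries. The PPAR receptors are on the left and the pyruvate dehydrogenase kinases on the right. PPARD makes up 76.6% to 80.6% of the receptors in every library, and PDK4 is too low to be seen.

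The dehydrogenase that these kinases control was measured too. Of 11 tested genes of the pyruvate dehydrogenase complex and its kinases and phosphatases, 3 rose and none fell by edgeR. DLD rose from 66.6 to 87.2 CPM, DLAT from 86.4 to 98.6 CPM and PDHA1 from 135 to 152 CPM, with log2 fold changes of 0.39, 0.19 and 0.17. SiHa PR P4HA3 replicate 2 was the highest library for DLD, at 104 CPM against 79.6 and 78.6 CPM in the other overexpressing libraries. Under the GC and length offset 1 gene of this list was called higher, DLD at 0.17, and 1 lower, PDK1, while DLAT (0.02) and PDHA1 (0.12) were not called.

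Of 41 listed PPAR target genes, which include 6 of the 9 genes, 26 were tested, of which 8 fell and 2 rose, with a median log2 fold change of -0.16. The lipid droplet gene PLIN4 fell from 1.51 to 0.699 CPM (-1.09, adjusted p = 0.0115 by edgeR), and G0S2, an inhibitor of triglyceride lipase, from 18.0 to 11.2 CPM (-0.68, adjusted p = 0.00232 by edgeR). Besides CPT1A, KLF10 rose (0.20, adjusted p = 0.0453 by edgeR), and was at 0.11 and not called with the trends removed. Targets typical of liver and fat, FABP1, CREB3L3 and CYP4A11, were at 0 counts in every library, and FABP4 had at most 1 count and CD36 at most 8. With the GC and length trends removed 5 target genes fell and 2 rose, with a median of -0.03. In that fit 1174 of the 15130 genes tested were called lower and 1613 higher.

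**Figure D4:**
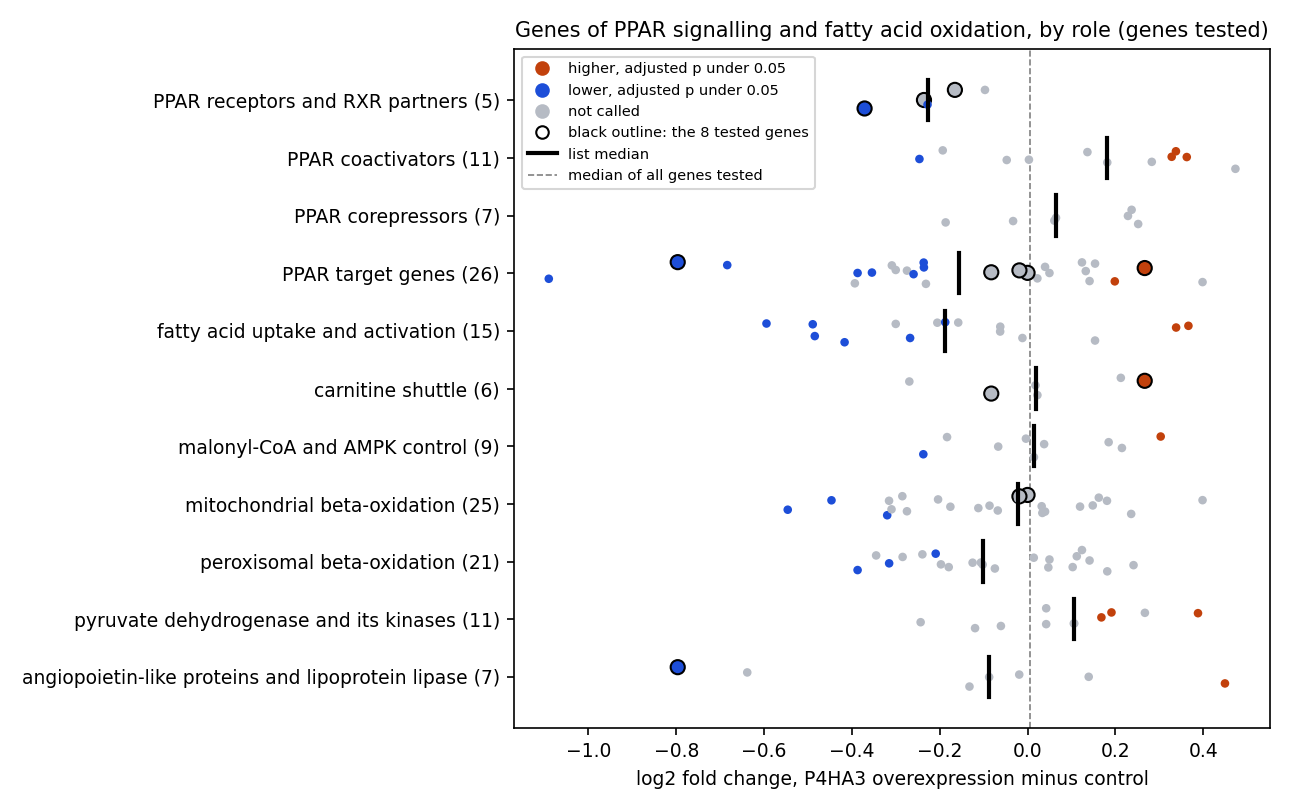
Log2 fold change, P4HA3 overexpression minus control, of each tested gene in 11 lists of PPAR signalling and fatty acid oxidation, with the number tested in brackets. Orange genes were called higher and blue genes lower, outlined points are among the 9 genes, black bars are list medians and the dashed line is the median of all genes. The list of uptake and activation has a median of -0.19 and the coactivators one of 0.18.

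Over all 11 lists 128 of 165 genes were tested, of which 12 were called higher (9.38%) and 23 lower (18.0%). These stand beside 9.36% and 11.4% of all genes, and the median log2 fold change was -0.05. Without the 9 genes the counts were 11 higher and 21 lower of 120. The count fell to 9 without SiHa PR replicate 1, to 4 without SiHa PR replicate 2 and to 13 without SiHa PR P4HA3 replicate 3, and was 56 without SiHa PR P4HA3 replicate 1.

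The calls of the 9 genes rested on the same libraries. Without SiHa PR replicate 2 edgeR called 0 of the 8 tested genes, with 3 at an unadjusted p under 0.05, while limma-voom called 0 and DESeq2 called 2 (PPARG and CPT1A). Without SiHa PR replicate 1 edgeR called ANGPTL4 alone, and limma-voom and DESeq2 called 0. The exact two-sided permutation test of each gene over the 6 libraries gave p = 0.1, the smallest that 3 against 3 allows, for PPARA, PPARD, PPARG, CPT1A, CPT2 and ANGPTL4. In 5 of these every overexpressing library lay below every control library, as for 20.4% of all genes tested.

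The order of the 9 genes by level per kilobase of exon was HADHA (72.8 CPM per kilobase in control cells), ACADVL (38.4), PPARD (12.7), CPT1A (6.26), CPT2 (4.24), PPARG (2.46), ANGPTL4 (1.61), PPARA (1.13) and PDK4 (0.00644). In control cells no neighbours in this order overlapped between libraries. With overexpression the order was the same except that PPARA (0.962 ± 0.136) and ANGPTL4 (0.924 ± 0.0558, SD, n = 3 each) exchanged places, and their libraries overlapped. By the longest transcript CPT2 stood above CPT1A in control cells (9.43 and 7.85) and below it with overexpression (8.90 and 9.44).

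Genes whose log2 CPM followed the called genes most closely over the 6 libraries were sought among 13369 genes of at least 1 CPM. They were CAMK2N2 and AREG for PPARG (Pearson's r of 0.999 for each), ZNF134 and PLXNA2 for CPT1A (0.996 and 0.993), and LINC01124 and NATD1 for ANGPTL4 (0.997 and 0.996). These values describe 6 libraries in 2 groups, share the libraries' depth and GC trends, and contain the group difference itself.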

How the data were processed

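RNA-seq was analysed from 3 SiHa PR and 3 SiHa PR P4HA3 libraries, grouped by their titles. The deposited values are raw counts per Ensembl gene, which the authors made from poly-A selected, strand-specific, paired-end libraries. The supplementary methods name STAR and HTSeq, the submitters' processing notes name HISAT2, and both give GRCh38. Tool versions, the strand setting and the treatment of reads with several matches are not given in the sources used here. Library totals ran from 21773488 to 24939948 counts, and the least abundant gene tested among the 9, ANGPTL4, rested on 48 to 111 of them a library.

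Groups were compared with edgeR 4.0.16 under R 4.3.3 (filterByExpr with a minimum count of 10, TMM, glmQLFit and glmQLFTest, two-sided, Benjamini-Hochberg over 15130 genes, adjusted p under 0.05). Log2 fold changes are not shrunken, and the SE is their size divided by the root of F. CPM is TMM-normalized, and the level per kilobase divides it by the union of GENCODE v44 exons on GRCh38, in which 60463 of 60664 identifiers were found. Genes that did not pass the count filter got no fold change, among them PDK4, with counts of 3 or fewer in both groups. Intervals cover the spread between libraries. The tests were checked on simulated counts. Alternatives were DESeq2 1.42.0, limma-voom (limma 3.58.1), RLE or no normalization factors, other count filters, a replicate block, each library left out, an adjusted p under 0.01, and offsets for each library's smooth trend on GC content and transcript length (mgcv 1.9.3), which also remove any group difference that follows either.

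A few genes of the lists and part of the motif search are not reported here. The genes, lists and tests were chosen with earlier results of these data known. Named besides the 9 genes are set paralogs and partners, up to 3 genes called in each direction per list with a mean of at least 1 CPM, those overlapping a named gene, and the 2 most alike per called gene. EP300, PRKAA2, RXRG, ACACB, MLYCD, ACADL, LPL, GPIHBP1, FABP1, CREB3L3, CYP4A11, FABP4, CD36 and the cell type markers were named after their values were seen.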

Additional observations from a re-analysis of the deposited data

How the results depend on the processing

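The count of called genes among the 9 stayed at 3 with DESeq2, limma-voom, RLE, library size only, both other count filters and the replicate block. It was 5 with the GC and length offset (2 higher, 3 lower) and 5 with the block and the offset, 1 at an adjusted p under 0.01 (ANGPTL4), and 0 to 3 with 1 library left out. PPARA was called under the offset (-0.32) and under the offset with the block (-0.32), and ran from -0.30 to -0.12 with 1 library left out. PPARG ran from -0.41 to -0.32, CPT1A from 0.25 to 0.29 and ANGPTL4 from -0.91 to -0.68 with 1 library left out. The sign of PPARD turned under the offset (0.012) and under the offset with the block (0.012). ACADVL, at -0.0002, turned with DESeq2 (0.00024), limma-voom (0.00096), RLE (0.00027), library size only (0.016), no count filter (0.011) and the replicate block (0.00089), and was 0.18 under the offset and 0.18 with the block as well, and from -0.057 to 0.048 with 1 library left out. HADHA ran from -0.074 to 0.026. The cause of these differences was not tested. Among the pathway genes 4 to 56 were called with 1 library left out, and among all genes 534 to 5530. The offset gave 1613 higher and 1174 lower genes, so that the share of higher genes among the calls went from 45.0% to 57.9%, and without a count filter 2384 were higher and 2101 lower. By the longest transcript the share of PPARD was 65.2% and 67.9% and that of CPT1A 98.8% and 99.3% in control and overexpressing cells. The deviations of same-numbered libraries from their group means had correlations of 0.227, -0.0401 and 0.0357. SiHa PR P4HA3 replicate 2 was most like SiHa PR replicate 3 (0.232). The deviations of these libraries also followed GC content, with rank correlations of -0.476 and -0.52. The correlations therefore cannot tell whether the numbers pair the libraries. With the replicate number as a block, 3 of the 9 genes, 45 pathway genes (35 without it) and 4313 of all genes (3147 without it) were called. PDK4 was below what this depth can show.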

Other observations

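Among the genes of uptake and activation, DBI, the acyl-CoA-binding protein, fell from 143 to 107 CPM (log2 fold change -0.42, adjusted p = 0.0150 by edgeR), while ACBD3 and ACBD5, which carry a domain of the same kind, rose from 47.4 to 60.0 CPM and from 32.5 to 41.9 CPM. With the GC and length trends removed, DBI was at -0.43, ACBD3 at 0.20 and ACBD5 at 0.19, and each was called. The lipid droplet coat gene PLIN2, another PPAR target, fell from 52.6 to 44.6 CPM (-0.24, adjusted p = 0.0315 by edgeR) and was at -0.23 with the trends removed. UCP2, an inner-membrane carrier, fell from 57.6 to 48.1 CPM (-0.26, adjusted p = 0.0322 by edgeR) but was at -0.08 and not called with the trends removed. These 5 genes were chosen after their values were seen.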
